A study of Caenorhabditis elegans with 2 samples.

Results

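The regions described here are the 229 thresholded sites on the X chromosome of Caenorhabditis elegans, out of 1065 thresholded sites in all. They were chosen by position alone, as every region on chrX of the deposited thresholded ce11 (WBcel235) list. The authors' threshold was on the irreproducible discovery rate, a measure of how well a region's rank holds between replicates. All 1065 sites were the regions of highest signal called on the pooled reads, so a single site need not rank alike in both replicates. The other thresholded sites were 820 on the 5 autosomes, which served as the reference, and 16 in the mitochondrial genome, which were not compared. The data are ChIP-seq, in which DNA bound by a protein is pulled down and sequenced, for F13H6.1, the product of bcl-11, carrying GFP-FLAG at its C terminus. All samples form 1 group of 2 biological replicates of strain OP471, genotype unc-119(tm4063) III; wgIs471, taken as whole hermaphrodite late embryos 5 hours after synchronization by egg bleaching and precipitated with an antibody against GFP. The tagged protein came from a transgene in a single strain, and whole embryos do not tell in which cells a site was occupied.

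The mammalian BCL11 proteins, from which bcl-11 takes its name, are zinc finger repressors of transcription in blood and brain. The worm X chromosome is transcribed at a reduced level in hermaphrodites by the dosage compensation complex, and it carries few genes that are expressed in the germline. It is also rich in tRNA genes, which are transcribed by RNA polymerase III from promoter elements inside the gene, the A box and the B box. The protein complex TFIIIC binds these elements.

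The sites of highest signal on X fell into 2 kinds, those at a tRNA gene and those elsewhere, and the 3 highest of each kind are printed here to show what the DNA under a summit looks like. For the tRNA genes the sequence runs 5′ to 3′ on the strand of the gene, and capitals mark the annotated gene. All 3 printed runs hold the word GGTTCNA, the start of the B box consensus. The regions are chrX:13665512-13665693 (plus strand), chrX:5085582-5085715 (minus strand) and chrX:12106127-12106266 (minus strand) on WBcel235, read from the RefSeq genome.
tRNA-Leu gene C04A11.t1: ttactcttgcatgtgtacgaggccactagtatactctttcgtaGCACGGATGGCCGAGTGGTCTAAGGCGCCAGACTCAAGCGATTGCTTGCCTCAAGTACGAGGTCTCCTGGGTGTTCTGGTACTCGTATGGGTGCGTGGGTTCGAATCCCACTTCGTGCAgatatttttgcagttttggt
tRNA-Ile gene C42D8.t1: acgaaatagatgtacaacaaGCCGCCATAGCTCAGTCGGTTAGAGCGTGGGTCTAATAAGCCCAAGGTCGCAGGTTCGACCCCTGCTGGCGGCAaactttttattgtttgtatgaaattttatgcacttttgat
tRNA-Lys gene W03G11.t1: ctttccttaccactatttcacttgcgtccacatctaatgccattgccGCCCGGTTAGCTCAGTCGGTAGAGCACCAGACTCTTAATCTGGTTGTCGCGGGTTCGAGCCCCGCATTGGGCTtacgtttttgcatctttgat
For the sites elsewhere, the window of 50 bp on each side of the summit is given on the plus strand, and capitals mark a match to TGACCA or GAGAGA on either strand. The windows are chrX:5812078-5812178, chrX:11605960-11606060 and chrX:6207792-6207892. The summit of the first lies 6206 bp from F13D11.3 and 10014 bp from hbl-1, its protein-coding neighbours. The first holds TGACCA, the word that mammalian BCL11A is known to bind, the second holds no searched word, and the third holds GAGAGA on the minus strand.
at the noncoding RNA gene F13D11.9, upstream of hbl-1: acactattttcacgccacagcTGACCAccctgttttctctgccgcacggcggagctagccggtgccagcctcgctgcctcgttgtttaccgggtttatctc
at the noncoding RNA gene F52D10.7, upstream of ftt-2: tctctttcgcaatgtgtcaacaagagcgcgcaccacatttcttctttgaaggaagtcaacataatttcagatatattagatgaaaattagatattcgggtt
at the noncoding RNA gene C14F11.14, upstream of T13C5.6: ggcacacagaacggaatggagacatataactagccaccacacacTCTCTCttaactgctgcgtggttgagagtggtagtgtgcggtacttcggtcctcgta

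X held more of the thresholded sites than of the weaker regions. The authors also deposited a permissive list of regions called on the pooled reads, and 1049 of its 21807 nuclear regions (4.81%) had been kept as sites. On X 6.05% of the pooled regions had been kept, against 4.55% on the autosomes. X therefore held 229 of 1049 nuclear sites (21.8%, 95% Wilson interval 19.4 to 24.4), against 3470 of the 20418 nuclear sub-threshold regions, those that overlapped no site (17.0%, 16.5 to 17.5). The odds ratio was 1.36 (95% interval 1.17 to 1.59, two-sided Fisher's exact test, p = 8.00e-05). When the background was cut to the strongest 1065 of these regions, of which X held 234 (22.0%), the odds ratio was 0.992 (0.807 to 1.22, exact p = 0.958). With all regions near tRNA, snoRNA and snRNA genes left out, it was 1.19 (0.999 to 1.41, exact p = 0.0549).

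Among the X regions, those near a tRNA gene, here within 100 bp, were concentrated in the highest ranks. Among the 100 pooled regions of highest signal, X held 19 of 89 nuclear regions (21.3%, 14.1 to 30.95), and 9 of these 19 lay at a tRNA gene. Without regions near tRNA genes the share on X was 12.8% in those ranks, 18.0% in ranks 101 to 500, 19.3% in ranks 501 to 1065 and 22.5% in ranks 1066 to 2000. Below rank 8000 it was 16.4%. The part of the X regions that lay at a tRNA gene was 47.4% in the first 100 ranks, 34.0% in ranks 101 to 500, 13.8% in ranks 501 to 1065 and 1.05% below rank 8000. Autosomal regions at a tRNA gene were likewise a larger share of sites (50 of 820, 6.098%) than of sub-threshold regions (130 of 16948, 0.767%). The shares by rank are descriptions of 1 ranked list, since signal also chose the sites.

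**Figure D1:**
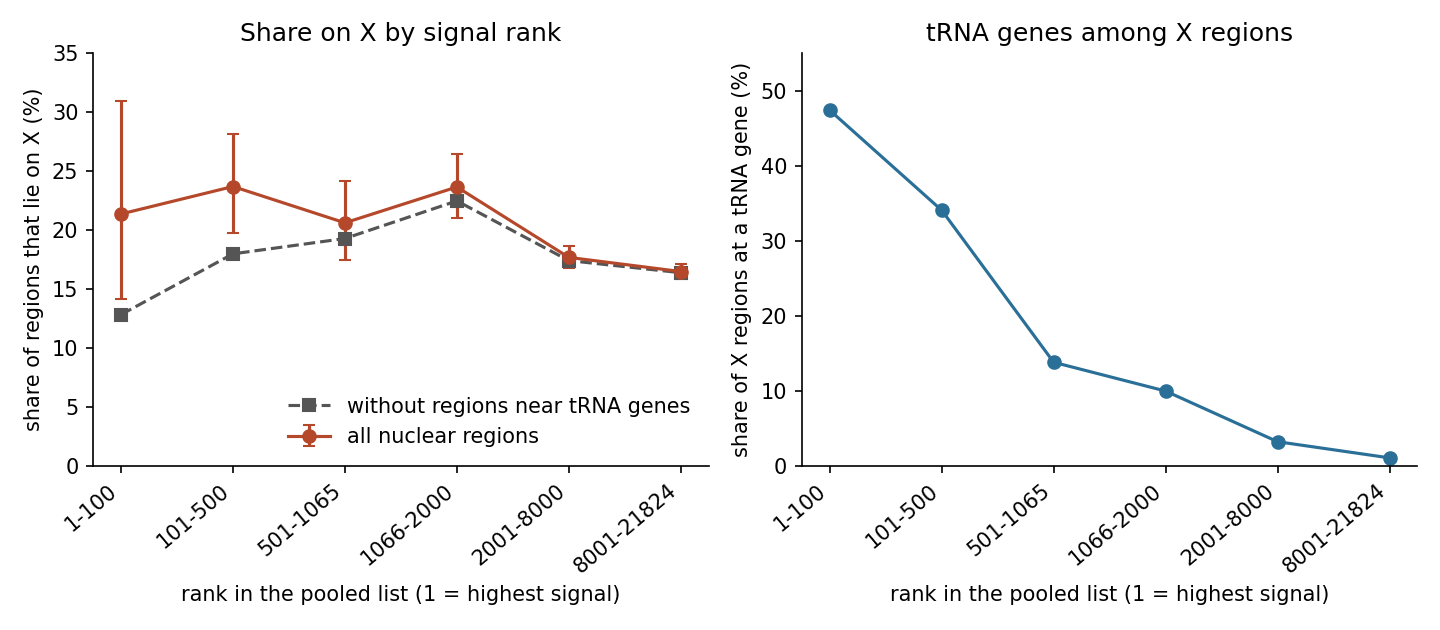
Left, the share of nuclear pooled regions that lie on X (vertical axis, %) by rank of signal (horizontal axis), for all regions with 95% Wilson intervals and without regions near tRNA genes. Right, the share of the X regions within 100 bp of a tRNA gene, which is 47.4% in the first 100 ranks and 1.05% below rank 8000.

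Per length, X carried 12.9 sites per Mb, against 9.93 on all autosomes. Chromosome III, with 13.5 sites per Mb, lay above X. The other autosomes had 12.1 (I), 10.1 (II), 8.52 (IV) and 7.07 (V), so X was second of the 6 chromosomes. The sub-threshold regions numbered 196 per Mb on X and 205 per Mb on the autosomes.

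Along X the sites were spread over the whole length. The first summit lay at position 353327 and the last at 17513737 of 17718942 bp. The 17 full windows of 1 Mb held 7 to 21 sites each, with a median of 13, and the last, shorter one held 6. The window from 5 to 6 Mb held 21, among them the strongest site on X, and the window from 10 to 11 Mb held 18. Divided into 3 equal lengths, X held 73, 73 and 83 sites on the left, in the middle and on the right (31.9%, 31.9% and 36.2%), against 34.7%, 30.1% and 35.2% of the X sub-threshold regions. None of these parts differed from its share in the test (Fisher's exact tests, adjusted p = 0.775 for each), and the odds ratio of the middle part was 1.08 (0.814 to 1.45). Sites at tRNA genes were present in all but 3 of the 18 windows, with 7 at most, in the window from 13 to 14 Mb.

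**Figure D2:**
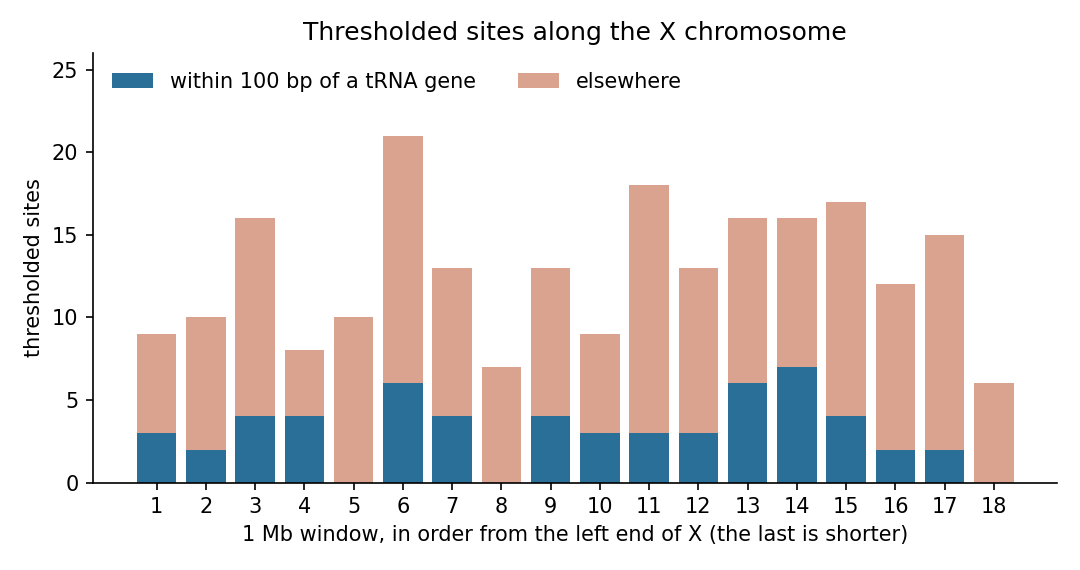
Number of thresholded sites on X (vertical axis) in successive windows of 1 Mb from the left end (horizontal axis), split into sites within 100 bp of a tRNA gene and sites elsewhere. Counts in the full windows run between 7 and 21, and neither end nor the middle of the chromosome differed in the test from its share of the sub-threshold regions.

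Neighbouring summits were a median of 47.2 kb apart. The widest gap, 460.7 kb, ran from 8836097 to 9296782. Of the 228 gaps on X, 25 (11.0%) were under 5 kb, against 107 of 815 (13.1%) on the autosomes. The sites under 5 kb apart formed 23 runs of 48 sites, and 2 runs held 3 sites each. One of these runs was upstream of and inside sma-9, the worm counterpart of the TGF-beta cofactor Schnurri, and the other was around mdl-1, which encodes a MAD-like transcription factor. Some sites were close pairs of summits within 1 enriched stretch, since 9 of the X gaps measured 190 to 220 bp and the 229 sites made up 220 separate loci. On the autosomes the 820 sites made up 796 loci. Sites are therefore not independent of each other, and the tests here treat them as if they were.

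The annotation at the summit set X apart mainly through small RNA genes. A summit within 100 bp of a tRNA gene was found for 57 of the 229 X sites (24.9%, 19.7 to 30.9), against 50 of the 820 autosomal sites (6.098%, 4.66 to 7.95). The odds ratio was 5.10 (3.37 to 7.72, Fisher's exact test, adjusted p = 2.68e-13 over 8 classes). These stretches cover 0.419% of X and 0.110% of the autosomes. A summit near a snoRNA gene, whose RNA guides the modification of ribosomal RNA, was found for 0 X sites, which allows a share of up to 1.31%, against 46 autosomal sites (5.61%, 4.23 to 7.40; adjusted exact p = 5.06e-05). Stretches near snoRNA genes cover 0.0651% of X and 0.126% of the autosomes. By gene, 0 of 33 on X had a summit within 100 bp, which allows a share of up to 9.09%, against 47 of 313 on the autosomes (15.0%). Near snRNA genes, which make the splicing RNAs, there were 0 X sites and 7 autosomal ones (0.854%, adjusted exact p = 0.409). X has 3 annotated snRNA genes, against 126 on the autosomes.

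None of the other classes passed the test between X and the autosomes after adjustment. Summits lay between genes at 113 X sites (49.3%) and 454 autosomal sites (55.4%), an odds ratio of 0.785 (0.586 to 1.05, adjusted exact p = 0.185). Among the 532 sites of highest signal the intergenic share was lower on X and passed the test, 39.7% against 54.9% (odds ratio 0.540, 0.357 to 0.817, adjusted exact p = 0.00968). With regions near tRNA, snoRNA and snRNA genes left out the direction turned, with 65.7% on X and 63.3% on the autosomes (odds ratio 1.11, adjusted exact p = 0.746). Introns of protein-coding genes held 33 X summits (14.4%) and 167 autosomal ones (20.4%), an odds ratio of 0.658 (0.439 to 0.988, exact p = 0.0456 before and 0.122 after adjustment). Other noncoding genes held 22 (9.61%) on X and 58 (7.07%) on the autosomes, UTRs 2 and 24, and coding exons 2 and 14, with adjusted exact p between 0.185 and 0.545.

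**Figure D3:**
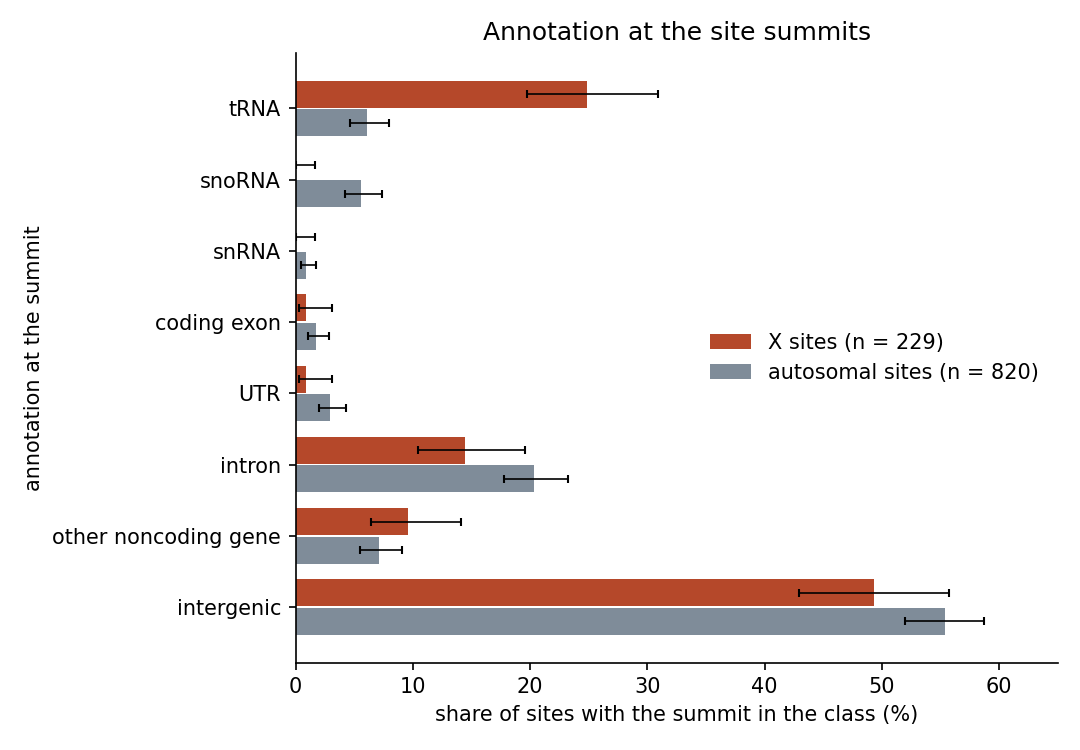
Share of sites (horizontal axis, %) with the summit in each annotation class (vertical axis), for X sites and, under each of them, autosomal sites, with 95% Wilson intervals. The tRNA class stands at 24.9% of X sites and 6.098% of autosomal sites, and the snoRNA class at 0 and 5.61%.

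A second comparison set sites against sub-threshold regions, on X and on the autosomes separately. Intergenic summits were over-represented less on X: the odds ratio of sites over sub-threshold regions was 1.48 (1.13 to 1.94) on X and 2.53 (2.20 to 2.92) on the autosomes. The ratio of these odds ratios was 0.585 (0.432 to 0.792, adjusted p = 0.00465 over 9 Woolf tests and 0.00517 by Zelen's exact test). This ratio kept its call in 5 of 7 other settings and lost it in 2. It was 0.809 (adjusted Woolf p = 0.492, exact 0.527) with regions near tRNA, snoRNA and snRNA genes left out. Against the strongest sub-threshold regions alone it was 0.575 (adjusted Woolf p = 0.0785, exact 0.102). For the tRNA class the odds ratios were 15.4 (10.6 to 22.5) on X and 8.40 (6.02 to 11.7) on the autosomes, and their ratio of 1.84 (1.11 to 3.04) did not pass the threshold after adjustment (adjusted p = 0.0828, exact 0.0644). It passed in some other settings, at 3.02 among the 532 highest sites (adjusted p = 0.00196, exact 0.00210) and 2.35 with replicate 1 alone as the source of the sites (adjusted p = 0.00511, exact 0.00553). With replicate 2 alone it was 2.01 and passed by the exact test only (adjusted p = 0.0502, exact 0.0434). Against the strongest sub-threshold regions alone it was 1.97 (0.979 to 3.96) and did not pass (adjusted Woolf p = 0.129, exact 0.174). With 1 site per overlapping set, chosen after seeing the data, it was 1.83 and did not pass (adjusted p = 0.0869, exact 0.0633). With repeated intervals counted once it was 1.855 and did not pass (adjusted p = 0.0745, exact 0.0633). For the snoRNA class 0 X sites stood against 7 of 3470 X sub-threshold regions, and 46 autosomal sites against 55 of 16948. Its difference passed by Zelen's exact test (adjusted p = 0.0247) and not by the Woolf test (adjusted p = 0.149). The other classes and the promoter window passed neither, with adjusted Woolf p between 0.255 and 0.912 and exact p between 0.256 and 1. For the promoter window, given below, the ratio was 0.759, and among the 532 highest sites it was 0.490 and passed both (adjusted p = 0.0152, exact 0.0220). In the setting of the 532 highest sites, the remaining sites that overlapped none of them counted as sub-threshold regions. In the settings of a single replicate, the sub-threshold regions came from the list of that replicate.

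Counted by gene, the tRNA genes of X were not shown to be reached more often than those of the autosomes. Of all 612 nuclear tRNA genes 18.5% had a summit within 100 bp, 60 of 276 on X (21.7%, 17.3 to 27.0) and 53 of 336 on the autosomes (15.8%, 12.3 to 20.1). The odds ratio was 1.48 (0.985 to 2.23, Fisher's exact test, p = 0.0604, adjusted p = 0.121). Among the 532 sites of highest signal the counts were 45 genes on X and 25 on the autosomes, an odds ratio of 2.42 (1.44 to 4.07, adjusted exact p = 0.00163). With replicate 2 alone as the source of the sites they were 53 and 41, an odds ratio of 1.71 (1.10 to 2.66, adjusted exact p = 0.0363). Another 72 X tRNA genes (26.1%) had only a sub-threshold summit, against 131 (39.0%) of the autosomal ones.

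The reached X genes included at least 1 for each amino acid. By the assignments that RefSeq gives for 273 of the 276 X genes, all 20 standard amino acids had at least 1 reached gene on X, against 17 on the autosomes. Alanine led with 6 of 13 X genes, followed by 5 of 27 for arginine, 5 of 23 for glutamate, 5 of 20 each for glycine and proline and 5 of 17 for leucine. Histidine (1 of 9), valine (1 of 14) and glutamine (1 of 15) were among those with 1 reached gene. An identical copy of the gene's sequence elsewhere in the nuclear genome existed for 54 of the 60 reached X genes, and for 165 of the 216 others on X (76.4%). On the autosomes it existed for 43 of 53 reached genes (81.1%) and 207 of 283 others (73.1%). Reads from such copies can be placed only by their flanks, the authors' treatment of them is not given in the sources used here, and its part in these counts was not tested.

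The median summit at a tRNA gene lay near the gene's 5′ end, though single summits were spread along and beside the gene. On X 36 of the 57 summits lay inside the gene, 17 upstream and 4 downstream, at a median of 9 bp downstream of the gene's 5′ end and between -56 and 139 bp from it. On the autosomes 28 of 50 lay inside, 16 upstream and 6 downstream, with a median of 10 bp. Of the X summits at tRNA genes 19 also lay within a protein-coding gene, against 28 of 50 on the autosomes.

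**Figure D4:**
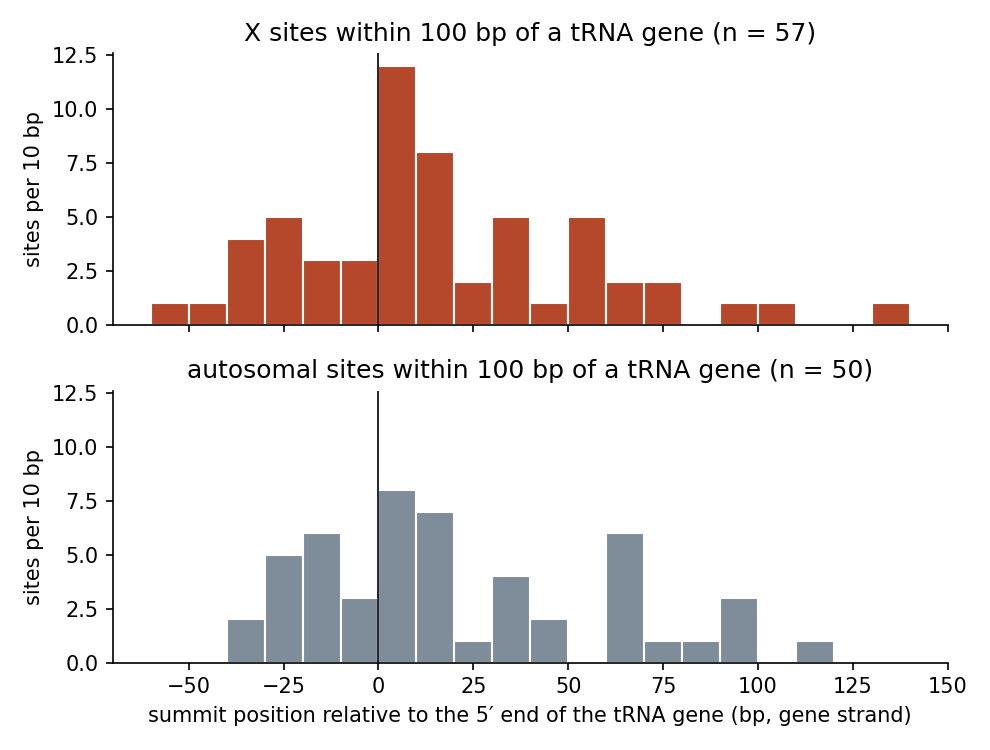
Number of sites per 10 bp (vertical axis) by position of the summit relative to the 5′ end of the tRNA gene on the gene's strand (horizontal axis, bp), for X sites above and autosomal sites under them. In both groups the median summit lies just downstream of the 5′ end, at 9 bp on X and 10 bp on the autosomes, with a wide spread.

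tRNA genes made up 10 of the 20 highest X sites. The strongest was the tRNA-Leu gene C04A11.t1 at chrX:13665422-13665729, printed above, which lies between the converging ends of C04A11.5 and C04A11.2. Its authors' signal was 360 in the pooled list, 25th of the 1065 sites, and it ranked 25th in replicate 1 (173) and 23rd in replicate 2 (188). The tRNA-Ile gene C42D8.t1 near ets-5, an ETS family transcription factor gene, had a signal of 272 and ranked 56th and 51st in replicates 1 and 2. The tRNA-Lys gene W03G11.t1 beside the collagen gene col-181 had 241 and ranked 63rd and 74th. These 3 were about as high in one replicate as in the other.

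The next of them differed more between replicates. F41D9.t3 (tRNA-Asn), inside a gene of the sulphate transporter family, sulp-3, ranked 136th in replicate 1 and 49th in replicate 2, and C28G1.t1 (tRNA-Glu) 87th and 71st. F15G9.t1 (tRNA-Ala) inside him-4, the hemicentin gene, ranked 68th and 130th, M02F4.t1 (tRNA-Gly) 53rd and 147th, and C33G3.t2 (tRNA-Lys) 71st and 148th. F38G1.t2 (tRNA-Asp) inside egl-17, an FGF gene, ranked 74th and 183rd, and C02B4.t2 (tRNA-Tyr) 119th and 97th. Of these, C28G1.t1 and C02B4.t2 stood at similar ranks in both replicates, and each of the others stood clearly lower in one of them.

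The strongest site on X lay far from any protein-coding start. It was at chrX:5811894-5812465, with a signal of 676, the fifth highest of all sites, and it ranked 5th in replicate 1 (297) and 4th in replicate 2 (379). Its summit was 23 bp from the start of the noncoding RNA gene F13D11.9, with the noncoding genes F13D11.7, F13D11.13 and F13D11.22 within the promoter window. The nearest protein-coding neighbours were F13D11.3, 6206 bp to the left, and hbl-1, 10014 bp to the right. hbl-1 encodes a hunchback-like zinc finger protein that times larval cell fates. A second summit 200 bp further right had a signal of 198 and ranked 125th.

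The second of the strong sites was upstream of ftt-2, which encodes a 14-3-3 protein, and of the noncoding gene F52D10.7. Its signal was 378 at chrX:11605727-11606241, it ranked 23rd in replicate 1 and 18th in replicate 2, and its summit was 591 bp from the ftt-2 start. Upstream of T13C5.6 and inside the noncoding gene C14F11.14, a site of signal 285 ranked 52nd and 37th. A site of 283, 922 bp upstream of ain-1, a GW182 family partner of microRNA-bound Argonaute, ranked 64th and 27th. Each of these 3 ranked higher in replicate 2.

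The other sites among the 20 lay near genes of several kinds. A site 2998 bp upstream of sma-9 had a signal of 272 and ranked 133rd in replicate 1 and 28th in replicate 2. It was followed by 2 more, of 139 upstream and 165 in an intron, within 4.90 kb. Upstream of epn-1, the epsin gene of endocytosis, a site of 265 ranked 69th and 47th. In an intron of nhr-3, which encodes a nuclear hormone receptor, a site of 248.5 ranked 72nd and 60th. Sites upstream of bet-2, a bromodomain protein gene, and of nhr-48, another nuclear receptor gene, had 228 and 218 and ranked 95th and 69th, and 121st and 76th. A site of 223 near the noncoding gene C30E1.9 ranked 85th and 93rd. All 20 of the highest X sites were within the first 136 regions of replicate 1 and the first 183 of replicate 2.

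Fewer X than autosomal sites lay in the promoter window of a protein-coding start, and for starts of any kind the difference passed the test in 1 of the settings run, that of the highest sites. A summit lay in the promoter window, 1000 bp upstream to 500 bp downstream of any transcript start, at 180 of 229 X sites (78.6%) and 665 of 820 autosomal sites (81.1%), an odds ratio of 0.856 (0.597 to 1.23, adjusted exact p = 0.595). Among the 532 highest sites the shares were 75.2% on X and 84.4% on the autosomes, an odds ratio of 0.561 (0.343 to 0.920, adjusted exact p = 0.0435). Counting protein-coding starts alone, it was 101 X sites (44.1%) and 508 autosomal sites (62.0%), an odds ratio of 0.485 (0.360 to 0.652, adjusted exact p = 5.02e-06). With regions near tRNA, snoRNA and snRNA genes left out, a setting chosen for this window after seeing the data, these shares were 88 of 172 on X (51.2%) and 469 of 717 on the autosomes (65.4%), an odds ratio of 0.554 (0.396 to 0.775, adjusted exact p = 0.00185). The window of protein-coding starts covers 26.8% of X and 33.0% of the autosomes, and it held 34.6% and 38.4% of the sub-threshold summits. For sites over sub-threshold regions, a comparison also added after seeing the data for this window, the ratio of the X to the autosomal odds ratio was 0.572 (0.421 to 0.776, adjusted Woolf p = 0.00233, exact 0.00259).

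The nearest start of any kind belonged to a protein-coding gene at 86 X sites (37.6%) and 505 autosomal sites (61.6%). It belonged to a noncoding RNA gene of the general ncRNA type at 81 X sites (35.4%) and 181 autosomal ones (22.1%), and to a tRNA gene at 52 (22.7%) and 43 (5.24%). A protein-coding start lay within 250 bp of 38 X summits (16.6%) and 268 autosomal ones (32.7%), and farther than 3000 bp from 43 (18.8%) and 102 (12.4%).

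Counted by gene, no difference in the share of protein-coding genes reached was called. Of all nuclear protein-coding genes 3.91% had a summit in the promoter window, 104 of 2731 on X (3.81%) and 676 of 17242 on the autosomes (3.92%). The odds ratio was 0.970 (0.786 to 1.20, adjusted exact p = 0.832).

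Between genes, X sites had divergent protein-coding neighbours less often, and convergent ones more often, than autosomal sites. The arrangements of sub-threshold summits and of intergenic bases were not counted. The part that the gene layout of X has in these shares was therefore not tested. The neighbours were divergent, with the site upstream of both, at 52 of 113 intergenic X sites (46.0%) and 262 of 454 autosomal ones (57.7%). The odds ratio was 0.625 (0.413 to 0.945, adjusted exact p = 0.0401). They were convergent, with the site downstream of both, at 7 X sites (6.19%, 3.03 to 12.2) and 7 autosomal ones (1.54%, 0.749 to 3.15), an odds ratio of 4.22 (1.45 to 12.3, adjusted exact p = 0.0313). Tandem neighbours made up 54 and 185, with no difference called (adjusted exact p = 0.201). With sites from replicate 2 alone, the odds ratios were 0.614 (adjusted exact p = 0.0557) for divergent and 2.51 (adjusted exact p = 0.105) for convergent neighbours. With 1 site per overlapping set, the divergent odds ratio was 0.652 (adjusted exact p = 0.0771), and among the 532 highest sites the adjusted exact p were 0.104 and 0.113.

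The convergent X sites included C30E1.9, given above. The next, at chrX:11093924-11094379 between W04G3.11 and W02H3.3, had a signal of 197 and ranked 128th in replicate 1 and 118th in replicate 2. Another, near the pseudogene Y64H9A.1, had 129 and ranked 437th and 461st. The remaining 4 had signals of 85.4 to 109. The strongest divergent site after those of ftt-2 and ain-1 was 278 bp from the start of serp-1.1, with a signal of 192.5 and ranks of 141 and 149.

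Few X summits fell into exons. Those in coding exons lay within mom-1, 3379 bp from its start (144; 282nd in replicate 1 and 324th in replicate 2), and within pks-1, a polyketide synthase gene, at chrX:5429337-5429792 (138; 380th and 308th). Those in UTRs lay at alg-1, which encodes a microRNA Argonaute (135; 277th and 384th), and at coel-1, a tubulin cofactor gene (96.0; 2045th and 314th). The coel-1 site thus ranked far lower in replicate 1. The strongest intronic sites after nhr-3 were in sma-9 (165; 185th and 229th) and in inso-1 (157; 425th and 177th).

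Of 9 lists of genes, 68 members were X-linked, and 13 of these had a summit in the promoter window, as had 34 of the 201 autosomal members, beside 3.91% of all protein-coding genes. The lists were drawn up with results of these data known, so the counts are descriptions only. In the heterochronic and microRNA list 2 of 6 X-linked members had a site, alg-1 and ain-1. Another 2 had intronic sites outside the window, lin-14, a timing factor of the larval stages, with signals of 133 and 114, and daf-12, a nuclear hormone receptor gene, with 147. hbl-1 and let-7 had none in the window.

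Muscle genes on X with a site were 3 of 10, act-4 (actin), mup-2 (troponin T) and dim-1 (an immunoglobulin-domain muscle protein). Their signals were low, 85.2 to 88.9, and the replicates placed them far apart. The mup-2 site ranked 3217th in replicate 1 and 434th in replicate 2, the dim-1 site 2845th and 592nd, and the act-4 site 1599th and 662nd. All 3 therefore stood outside the first 1065 regions of replicate 1 and inside those of replicate 2.

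The chromatin and nuclear envelope list had 2 of 4, bet-2 and unc-84, a SUN protein gene of the nuclear envelope (92.9). The list of 14-3-3 proteins, chaperones and proteolysis had both of its X-linked members, ftt-2 and hsp-3, an endoplasmic reticulum chaperone gene of the BiP kind (125; 64 bp from its start). The axon and synapse list had 1 of 18, syd-2, the liprin-alpha gene (126). The signalling list had 2 of 11, mom-1, needed for Wnt secretion, and egl-17. The window sites of mom-1 and egl-17 both lay at a tRNA gene, T07H6.t2 (173) and F38G1.t2 (215). The ribosomal list had 1 of 2, rpl-11.2 (95.4). The dosage compensation and sex determination list had 0 of 6, and the gut and yolk list 0 of 9, with elt-2, xol-1 and sdc-2 among those with no site.

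Words were sought on both strands in the 50 bp to each side of the summit, and none of the 3 searched words contains another. GGTTCNA was present at 31 X sites (13.5%) and 50 autosomal sites (6.098%), an odds ratio of 2.41 (1.50 to 3.88, Fisher's exact test, adjusted p = 0.00125). It was present at 24 of the 57 X sites at tRNA genes (42.1%) and 7 of the other 172 (4.07%), against 3.49% of the X sub-threshold windows. The window often ends before the B box, so 42.1% is not the share of these tRNA genes that hold the word. In C04A11.t1 and W03G11.t1, printed above, the word lies beyond the window and was not counted. On the autosomes GGTTCNA had similar shares, at 20 of 50 sites at tRNA genes (40%) and 30 of the other 770 (3.90%). It was in 3.46% of the autosomal sub-threshold windows. The odds ratio of 2.41 over all sites therefore goes with the larger share of X sites at tRNA genes. Away from tRNA, snoRNA and snRNA genes the odds ratio between X and autosomes was 1.99 (0.797 to 4.95, adjusted exact p = 0.250). TGACCA was present at 13 X sites (5.68%) and 27 autosomal ones (3.29%), an odds ratio of 1.77 (0.897 to 3.48, adjusted exact p = 0.175), and in 4.67% and 3.505% of the sub-threshold windows. With sites from replicate 2 alone its odds ratio was 2.15 (1.17 to 3.93, adjusted exact p = 0.0298). GAGAGA was present at 64 X sites (27.9%) and 233 autosomal sites (28.4%), against 11.1% and 10.9% of the sub-threshold windows, an odds ratio of 0.977 (0.705 to 1.35, adjusted exact p = 0.934). A match is a description of the letters, and it does not show a bound site.

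No measure of agreement between the replicates differed between X and autosomal sites in its test. All 229 X sites overlapped a region of replicate 1 and one of replicate 2, lists that the threshold itself had used. The summit was within 100 bp of a summit of replicate 1 at 217 X sites (94.8%) and 799 autosomal sites (97.4%), and of replicate 2 at 227 (99.1%) and 806 (98.3%), with adjusted exact p of 0.469 and 1. For replicate 1 the odds ratio was 0.475 (0.230 to 0.981, Fisher's exact p = 0.0522 before adjustment). The adjustment was over 9 tests, among them the overlaps with each replicate, whose outcome the threshold had nearly fixed. The median distance of an X summit was 14 bp in replicate 1 and 11 bp in replicate 2.

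By rank, 157 X sites (68.6%) and 569 autosomal sites (69.4%) were among the 1065 highest regions of both replicates, an odds ratio of 0.962 (0.701 to 1.32, adjusted exact p = 1). Another 32 X sites were among the highest of replicate 1 only, 37 of replicate 2 only and 3 of neither. Each site took the rank of the strongest replicate region it overlapped, so close pairs of summits could share a rank. With 1 site per overlapping set, chosen after seeing the data, 148 of 220 on X (67.3%) and 549 of 796 on the autosomes (69.0%) were among the highest of both. Without using the thresholded list, 160 of the 230 X regions among the 1065 highest of replicate 1 overlapped one of the 1065 highest of replicate 2 (69.6%), against 587 of 818 on the autosomes (71.8%, adjusted exact p = 1). In the other direction it was 157 of 237 (66.2%) and 569 of 814 (69.9%, adjusted exact p = 1).

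The ranks of X sites at tRNA genes and of the other X sites were described without a test. Of the 57 at tRNA genes, 46 (80.7%) were among the highest of both replicates, and of the other 172, 111 (64.5%). The 57 also stood higher in the pooled list, at a median rank of 352 against 568 for the other 172. The shares were not adjusted for that difference. Spearman's rho of the 2 replicates' signals was 0.720 over the 57 and 0.517 over the other 172, and 0.594 over all X sites, against 0.565 over the autosomal ones. These correlations describe regions of 2 libraries that were chosen by high pooled signal, to which both replicates contributed. The lowest rank of an X site was 5728 in replicate 1 and 2790 in replicate 2.

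**Figure D5:**
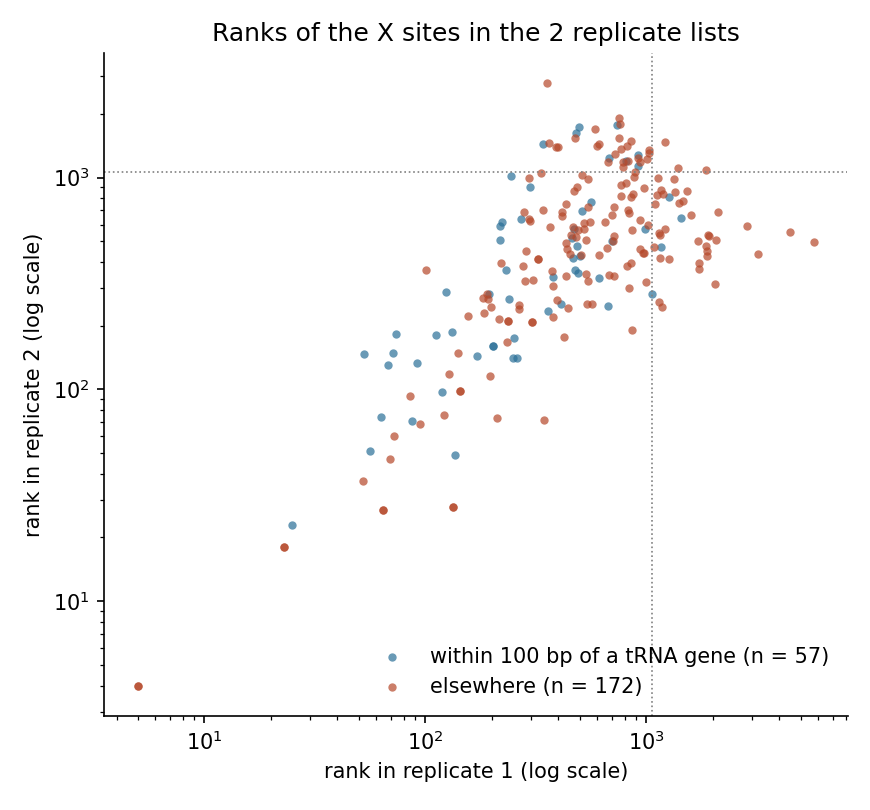
Rank of each X site in replicate 1 (horizontal, log scale) and in replicate 2 (vertical, log scale), with sites at tRNA genes and sites elsewhere in different colours and dotted lines at rank 1065. Of all X sites 157 lie within both lines, 32 within that of replicate 1 only and 37 within that of replicate 2 only. Each site has the rank of the strongest replicate region it overlaps, so close pairs of summits can share a rank.

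Signal and width were described only, because signal chose the sites. X sites had a median signal of 114 (82.1 to 676), against 111 (82.2 to 1223) for autosomal sites. Within X the median was 132 at tRNA genes and 109 elsewhere. A width of 456 bp was shared by 194 X sites (84.7%) and 687 autosomal ones (83.8%). The lowest X sites, near F53B3.10, F15G9.5 and mkk-4, had signals of 82.13, 82.21 and 82.32. The highest X regions that missed the threshold, near W05H9.3, jmjd-3.1 and gob-1, had 82.12, 81.66 and 81.57, so the values on each side of the threshold nearly meet.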

How the data were processed

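The members were all regions on chrX of the thresholded ce11 list, and these members, the gene lists and the tests were chosen with earlier results of these data known. Per the file lists deposited with the samples, the authors called regions against a control on each replicate and on both pooled, then thresholded the pooled list. The sources used here name no aligner, caller, version or threshold. Every region as deposited has a signal and a score from the authors' caller whose scales are not stated. The signal ranked regions within 1 list, and the score was not used. The lists do not tell how deeply a library was sequenced, so the precision from depth is unknown, and control libraries were not analysed here.

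The replicate lists held 19517 and 21972 regions and the pooled list 21824. All 1065 sites were its regions of highest signal, 3 intervals were repeated (2 on X), and 340 nuclear regions that overlap a site without being one were left out. Genes came from Ensembl release 115 (WBcel235) and tRNA amino acids from RefSeq. A summit was assigned to the first class that applied, of tRNA, snoRNA or snRNA gene within 100 bp, coding exon, UTR, intron, other noncoding gene and intergenic. Shares of X and autosomal sites were compared by two-sided Fisher's exact tests, and odds ratios between them by Woolf tests (and, added after seeing the data, Zelen's exact test), at 0.05 with Benjamini-Hochberg adjustment within 9 families of 41 tests in all. Where a count was 0, 0.5 was added to the cells for the odds ratio. Intervals and limits (3 counts) cover counting error only. The code was tested on simulated data. Sites named are the 20 highest on X, the 3 highest of each class and neighbour arrangement, X-linked list members with a site, and those next to the threshold. The software was scipy 1.17.1, pandas 2.3.3 and numpy 2.4.6 under Python 3.11.15, with matplotlib 3.10.9 for plots.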

Additional observations from a re-analysis of the deposited data

Results flagged for a closer look

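The intergenic class stood out because the effect of the threshold differed between X and the autosomes in a test of that difference. Sites over sub-threshold regions had an odds ratio of 1.48 for intergenic summits on X and of 2.53 on the autosomes, and the ratio of these was 0.585 (adjusted p = 0.00465 by the Woolf test and 0.00517 by Zelen's exact test). It kept its call in 5 of 7 other settings, among them 1 site per overlapping set, which was chosen after seeing the data. It did not pass in 2. With regions near tRNA, snoRNA and snRNA genes left out it was 0.809 (adjusted Woolf p = 0.492, exact 0.527). Against the strongest sub-threshold regions alone it was 0.575 (adjusted Woolf p = 0.0785, exact 0.102).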

How the results depend on the processing

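Of 135 recomputed values, 109 kept their direction and their side of the threshold, 9 lost and 10 gained a call, and 7 changed direction, none of them with a call after the change. The cause of these changes was not tested. Values are odds ratios of X over autosomes, except for the share on X and the middle part of X. Those set sites against sub-threshold regions. Ratios of odds ratios are named as such. For the 532 highest sites, the remaining sites that overlapped none of them joined the sub-threshold regions. With the highest sub-threshold regions as background, the share on X was 0.992, and the ratios of site odds ratios were 0.575 (intergenic) and 1.05 (intron). Without regions near small structural RNA genes, the share on X was 1.19, the intergenic class 1.11, the intergenic ratio of odds ratios 0.809 and GGTTCNA 1.99. Among the 532 highest sites, the values were 0.540 for the intergenic class, 0.561 for the promoter window, 2.42 for tRNA genes reached, 0.488 for divergent and 3.57 for convergent neighbours, 1.27 for GAGAGA, and 3.02 and 0.490 for the ratios of odds ratios of the tRNA class and the promoter window. With protein-coding starts alone the promoter window gave 0.485 and its ratio of odds ratios 0.572. With 1 site per overlapping set, chosen after seeing the data, divergent neighbours gave 0.652. Leaving out each replicate gave 0.846 to 1.03 for the middle part of X, 0.996 to 1.05 for protein-coding genes bound, 1.58 to 1.71 for tRNA genes reached, 0.584 to 0.614 and 2.51 to 4.34 for divergent and convergent neighbours, 0.906 to 1.04 for GAGAGA, 2.06 to 2.15 for TGACCA and 2.01 to 2.35 for the tRNA ratio of odds ratios. The tRNA class kept its call in each of its 6 alternatives (4.89 to 8.26). All alternatives for neighbours, words, the snoRNA class and the window of protein-coding starts, its ratio of odds ratios included, were also chosen after seeing the data, as was the removal of small RNA regions for protein-coding genes bound. No paired analysis was possible because the series has 1 group.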

Other observations

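A microRNA gene had the nearest start at 3 X sites and 9 autosomal sites. Of the 74 X-linked microRNA genes 0 had a summit within 100 bp, which allows a share of up to 4.05%, against 3 of 187 on the autosomes (1.60%). In the replicate lists taken separately, X held 22.1% of the nuclear regions among the first 100 of replicate 1 and 21.3% among those of replicate 2. Without regions near tRNA genes these shares were 13.3% and 15.9%.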
